A study of Mus musculus with 16 samples.

Results

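The interleukin-1 family genes described here are 10 of the 54532 genes measured in inguinal white adipose tissue (iWAT): the ligand genes Il1b, Il33 and Il18, the antagonist gene Il1rn, and the receptor genes Il1r1, Il1r2, Il1rap, Il1rl1, Il1rl2 and Il18r1. They were chosen by gene name, at a time when the differences of Il1r2 and Il1rl2 between Has2_TG and Has2_WT were already known, so all differences between those groups are given as descriptions, and counts of genes at p under 0.05 there serve only to set the members beside the share of all genes. Bulk RNA sequencing was done on iWAT of 16 male mice, 4 in each of 4 groups, that entered at 8 to 10 weeks of age and ate chow with 200 mg/kg doxycycline for 5 days. Has2_TG mice carried Apn-rtTA, in which the adiponectin promoter of adipocytes drives the doxycycline-dependent activator, together with TRE-Has2, a transgene for a synthase of hyaluronan (HA). PH20_TG mice carried Apn-rtTA with TRE-PH20, a transgene for the hyaluronidase encoded by Spam1. Has2_WT and PH20_WT were the littermates of each line with Apn-rtTA alone, so activator and doxycycline were common to all 4 groups. Replicates are numbered samples of a group, and p-values measure the spread between these samples. The comparison in each line asks how 5 days of HA overproduction, or of HA digestion, by adipocytes altered RNA levels in the depot.

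Cytokines of the interleukin-1 family signal through pairs of related receptors. Il1r1 encodes the receptor that binds interleukin-1 and, with the shared accessory chain from Il1rap, recruits MyD88 and activates NF-kB, while Il1r2 encodes a decoy that binds interleukin-1 but lacks the signaling domain, and Il1rn encodes an antagonist that occupies Il1r1 without activating it. Il1rl1 (ST2) is the receptor for interleukin-33, an alarmin that stromal cells of adipose tissue supply to group 2 innate lymphoid and regulatory T cells, Il1rl2 is the receptor for the interleukin-36 cytokines, and Il18r1 binds interleukin-18.

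Levels are FPKM as deposited, the fragments of a gene scaled to its annotated length and to a total for the library. This total was 0.886 to 1.14 times the reads on genes, so it was not plain depth. Each value below is 1 mouse unless a mean is named. Reads on genes numbered from 14421692 to 26751729 per library, and 1 read corresponds to 1 whole step of FPKM for a gene, so that every value could be read back as a count. The 9 adipocyte markers summed to between 9929 and 28100 FPKM in every library. The inguinal lymph node lies in this depot, and the 10 T cell markers summed to 234 FPKM in Has2_WT1, 126 in Has2_WT2, 311 in PH20_WT1 and 115 in PH20_WT3, against 3.38 to 14.5 elsewhere. The transgenes were checked in the same files. Has2 was at 1.86 to 3.24 FPKM in the Has2_TG libraries and at 0.417 to 0.806 FPKM in the Has2_WT libraries. In the PH20 line the library labelled PH20_TG1 had 0 reads of Spam1, which allows up to 0.0790 FPKM at 3 reads, while PH20_TG2, PH20_TG3 and PH20_TG4 had 6, 12 and 5 reads, and every library of the other groups had 0. Has2 itself was at 3.32 FPKM in PH20_TG1 and 3.26 FPKM in PH20_TG4, just above the highest Has2_TG library, but at 0.380 FPKM in PH20_TG2 and 0.0990 FPKM in PH20_TG3. The labels were kept as deposited, and results of the PH20 line are given with and without PH20_TG1 and PH20_TG4 where they rest on them.

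Of the 10 genes, 5 lie in 1 cluster of 6 receptor genes on chromosome 1 (GRCm38), which spans 477.627 kb from 40074079 to 40551705, all on the plus strand, in the order Il1r2, Il1r1, Il1rl2, Il1rl1, Il18r1 and Il18rap, the last of which is no member. Il1rn (24336853 to 24351494) and Il1b (129364570 to 129371139) lie on chromosome 2, Il18 on chromosome 9 (50554827 to 50581840), Il1rap on chromosome 16 (26581704 to 26730117) and Il33 on chromosome 19 (29925114 to 29960718). The 250 bases before the RefSeq start site (GRCm38.p6) are printed here, 5′ to 3′, for the 3 members that were higher in every Has2_TG library than in any Has2_WT library by the widest margin, because their levels moved together across the 16 mice. Capitals mark matches to AP-1 (TGANTCA), C/EBP (TTGCNNAA), TEAD (GGAATG) or the NF-kB consensus on either strand.
Il1r2, chr1:40085843-40086092, plus strand: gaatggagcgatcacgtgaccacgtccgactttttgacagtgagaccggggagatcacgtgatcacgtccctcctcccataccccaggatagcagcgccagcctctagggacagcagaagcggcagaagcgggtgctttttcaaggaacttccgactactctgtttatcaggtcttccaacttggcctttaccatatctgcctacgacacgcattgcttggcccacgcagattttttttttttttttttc
Il1rl2, chr1:40324339-40324588, plus strand: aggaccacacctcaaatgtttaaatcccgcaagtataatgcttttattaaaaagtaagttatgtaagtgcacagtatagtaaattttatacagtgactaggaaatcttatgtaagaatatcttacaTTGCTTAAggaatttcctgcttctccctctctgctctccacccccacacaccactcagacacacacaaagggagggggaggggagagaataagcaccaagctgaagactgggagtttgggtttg
Il33, chr19:29924863-29925112, plus strand: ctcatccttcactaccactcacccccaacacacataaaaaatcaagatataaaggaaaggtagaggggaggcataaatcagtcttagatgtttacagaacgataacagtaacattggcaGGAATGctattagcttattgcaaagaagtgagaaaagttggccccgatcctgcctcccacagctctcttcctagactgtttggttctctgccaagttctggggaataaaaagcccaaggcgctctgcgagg
Il1r2 held none of the 4 motifs in this window, Il1rl2 held 1 C/EBP match that starts 124 bases before the RefSeq start, and Il33 held 1 TEAD match that starts 131 bases before it. Among the 32851 RefSeq windows of the same length, 9.56% held the C/EBP motif, 12.6% the TEAD motif, 6.75% the AP-1 motif and 3.90% the NF-kB motif. No motif was common to the 3 windows. The RefSeq start of Il1r2 lies 12014 bases inside the gene as the deposited table annotates it, so a more upstream start is not shown, and Il33 has a further RefSeq start that is not printed.

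Among the ligands, Il1b had few reads, at or under 3 in 3 of the 4 Has2_WT libraries, all 4 of Has2_TG and 1 of 4 in each PH20 group. It had 0 to 9 reads in Has2_WT, 0 to 2 in Has2_TG, 0 to 8 in PH20_WT and 3 to 16 in PH20_TG, and it stayed under the minimum of 50 mean reads for testing in both lines. In PH20_TG the values were 0.459, 0.158, 0.0943 and 0.589 FPKM, against 0.183, 0.167, 0.106 and 0 FPKM in PH20_WT, and the groups overlapped (2-sided exact permutation test on log2(FPKM + 0.1), p = 0.257, where 4 against 4 cannot go below 0.0286). The related ligand gene Il1a reached at most 1.02 FPKM, and Il1f5, Il1f6, Il1f8, Il1f9 and Il1f10, which include the interleukin-36 ligands that bind Il1rl2, had 0 reads in all 16 libraries. A receptor gene of this family, Il1rl2, was thus measured at a mean of 1066 reads per library, while its ligand genes had no read.

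Il33 (ENSMUSG00000024810) was the ligand gene that differed most clearly in the Has2 line. Its levels were 3.10, 2.05, 1.39 and 2.36 FPKM in Has2_WT1 to Has2_WT4 and 5.04, 3.80, 5.16 and 6.46 FPKM in Has2_TG1 to Has2_TG4. Every Has2_TG mouse was above every Has2_WT mouse, with a log2 fold change of 1.20 (SE 0.27). The PH20_WT controls stood at 6.46, 1.21, 3.94 and 4.01 FPKM. PH20_TG1 and PH20_TG4 were at 7.66 and 5.57 FPKM, whereas PH20_TG2 and PH20_TG3 were at 0.819 and 0.291 FPKM, so the transgenic mice fell on both sides of their controls. The log2 fold change in that line was -0.79 (SE 0.96), which did not pass p under 0.05 (limma adjusted p = 0.863).

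Il18, whose product is matured by caspase-1, overlapped between the groups of the Has2 line. It ranged from 3.60 to 9.54 FPKM in Has2_WT and from 5.54 to 11.4 FPKM in Has2_TG, with a log2 fold change of 0.20 (SE 0.33). PH20_WT ranged from 5.67 to 13.2 FPKM, while PH20_TG1 to PH20_TG4 were at 21.6, 4.88, 1.28 and 16.3 FPKM. The highest and the lowest Il18 level of all 16 libraries were therefore both in PH20_TG, and the PH20 log2 fold change came to -0.24 (SE 0.79; limma adjusted p = 0.960). Il18 overlaps Bco2 on the opposite strand, which had a mean of 56.5 reads, and the strandedness of the libraries is not given in the sources used here, so reads in the shared stretch cannot be assigned to either gene. 

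The antagonist gene Il1rn was near its floor in the Has2 line, with 0 to 44 reads per library, and could not be tested there. It had 15 to 60 reads in PH20_WT. In PH20_TG it had 542 reads (5.71 FPKM) in PH20_TG1 and 24, 4 and 12 reads (0.218, 0.0433 and 0.152 FPKM) in PH20_TG2, PH20_TG3 and PH20_TG4. It passed the minimum of reads in the PH20 line through that 1 library alone, and its log2 fold change of 0.28 (SE 1.07; limma adjusted p = 0.967) rests on it, since Il1rn falls under the minimum without PH20_TG1. The 10 macrophage markers summed to 2147 FPKM in PH20_TG1, the highest of all libraries, against 266 to 1155 FPKM in the others, and the part of these cells in the Il1rn value was not tested.

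**Figure D1:**
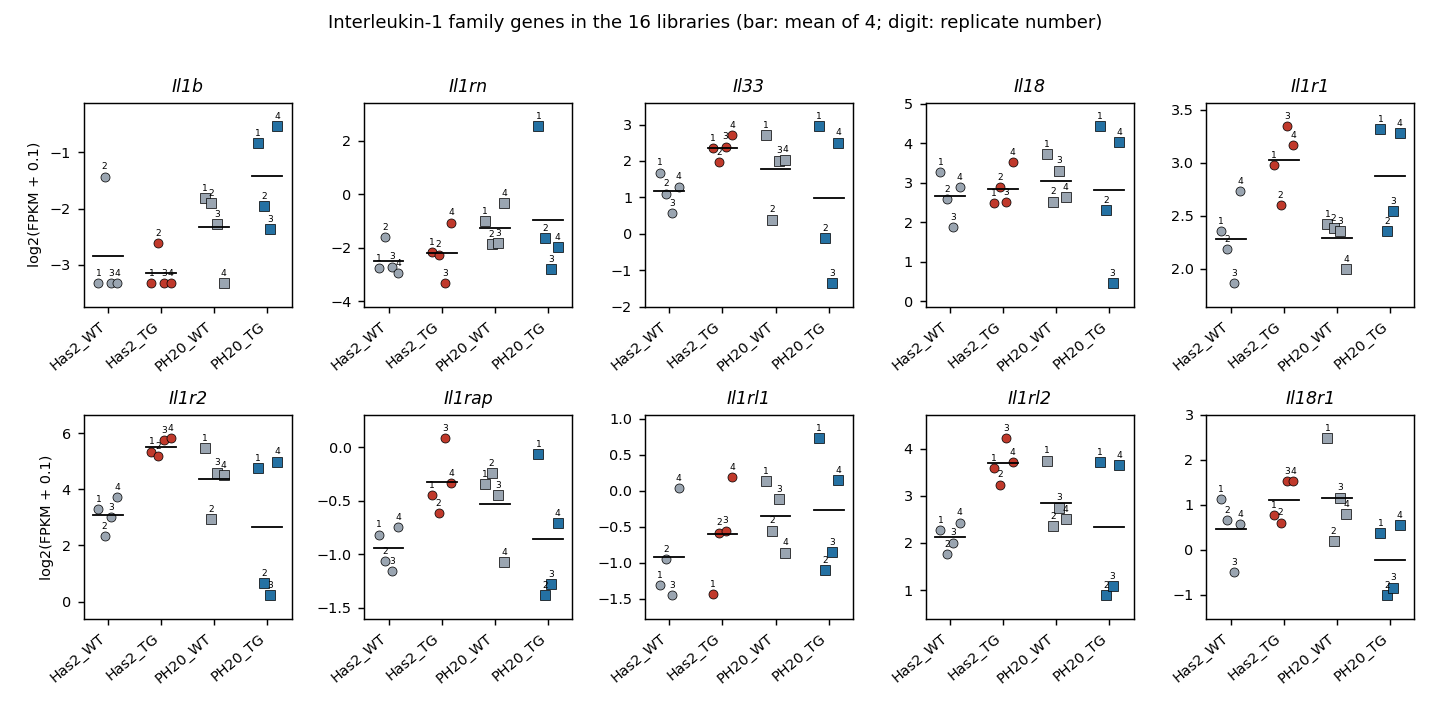
Level of each of the 10 genes as log2(FPKM + 0.1) on the y axis, by group on the x axis, with 1 point per mouse (circles, Has2 line; squares, PH20 line; gray, controls; digits, replicate numbers) and a bar at the mean of 4. Has2_TG points of Il1r2, Il1rl2 and Il33 lie above all Has2_WT points, and for these genes PH20_TG splits into replicates 1 and 4 at the top and replicates 2 and 3 at the bottom.

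Among the receptors, Il1r2 (ENSMUSG00000026073, chromosome 1, 40074079 to 40125231) showed the widest range of the family for which a ratio could be formed. It was at 9.64, 4.96, 8.03 and 13.2 FPKM in Has2_WT1 to Has2_WT4 and at 40.3, 36.1, 53.7 and 56.0 FPKM in Has2_TG1 to Has2_TG4. The lowest Has2_TG library was well above the highest control, and the decoy receptor gene was the most abundant member in each of the 4 groups by mean FPKM. Outside Has2_TG its range over libraries overlapped that of Il18, the next member, so the order of these genes was not separated there. The mean of Il1r2 was 46.5 ± 9.78 FPKM (SD, n = 4) in Has2_TG and 8.96 ± 3.43 FPKM in Has2_WT. These levels differ by a log2 fold change of 2.42 (SE 0.28), or 5.37-fold. The controls of the PH20 line already differed widely among themselves, at 43.9, 7.50, 24.0 and 22.7 FPKM. PH20_TG1 and PH20_TG4 were at 26.9 and 31.6 FPKM, and PH20_TG2 and PH20_TG3 at 1.48 and 1.07 FPKM, the lowest values of the gene in any library. Over all 16 libraries the highest Il1r2 level was 52.4 times the lowest, and the PH20 difference did not exceed the spread between mice, at a log2 fold change of -1.72 (SE 1.15; limma adjusted p = 0.765).

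Il1rl2 (ENSMUSG00000070942, chromosome 1, 40324610 to 40367562) followed a similar order at a lower level. It was at 4.72, 3.28, 3.92 and 5.30 FPKM in Has2_WT and at 12.0, 9.34, 18.5 and 13.1 FPKM in Has2_TG, again without overlap, for a log2 fold change of 1.58 (SE 0.24). In PH20_WT it was at 13.3, 5.05, 6.63 and 5.58 FPKM, and in PH20_TG at 13.1, 1.75, 2.02 and 12.5 FPKM. Replicates 1 and 4 of PH20_TG stood with the highest control and replicates 2 and 3 below all controls, and the PH20 log2 fold change came to -0.51 (SE 0.70; limma adjusted p = 0.883). A processed pseudogene, Gm17970, lies within Il1rl2 and had a mean of 9.88 reads against 1066 for the receptor gene.

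Il1r1 (ENSMUSG00000026072, chromosome 1, 40225080 to 40317257), the signaling receptor for interleukin-1, varied far less than its decoy, with 2.85-fold between the highest and the lowest library. It was at 3.54 to 6.55 FPKM in Has2_WT and 5.96 to 10.1 FPKM in Has2_TG, and the ranges overlapped, with a log2 fold change of 0.74 (SE 0.23). PH20 libraries had Il1r1 at 5.26, 5.10, 5.00 and 3.88 FPKM in the controls and at 9.89, 5.00, 5.73 and 9.61 FPKM in PH20_TG1 to PH20_TG4. Past the unadjusted threshold of p under 0.05, Il1r1 rose in PH20_TG by 0.59 on the log2 scale (SE 0.25; limma adjusted p = 0.731), with 3 of the 4 transgenic libraries above every control, and it was the only member raised there. The exact permutation test on log2(FPKM + 0.1) did not pass that threshold (p = 0.114). Without PH20_TG1 the log2 fold change was 0.44, without PH20_TG4 it was 0.45, and without both it was 0.16 (SE 0.19), and each of these values lost the call, as did leaving out any 1 of the 4 controls (0.49 to 0.63).

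The ratio of Il1r2 to Il1r1, decoy over signaling receptor, can be compared between mice because library scaling cancels. It was 1.12 to 2.27 in Has2_WT and 5.19 to 6.29 in Has2_TG, so both groups were narrow and apart. PH20_WT ranged from 1.47 to 8.34. In PH20_TG the ratio was 2.72 and 3.29 in replicates 1 and 4 and 0.295 and 0.186 in replicates 2 and 3, where the signaling receptor RNA exceeded the decoy RNA (2-sided exact permutation test on log2 ratios between PH20_TG and PH20_WT, p = 0.143). Gene-level values do not separate the soluble from the membrane forms that several of these receptors have.

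**Figure D2:**
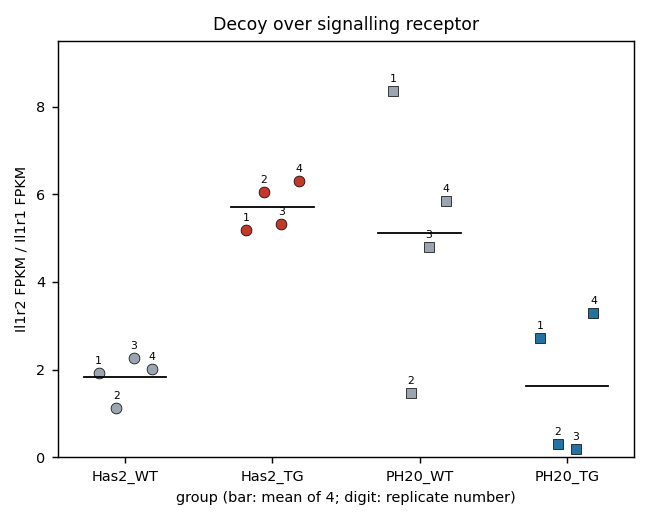
Il1r2 FPKM divided by Il1r1 FPKM on the y axis (linear, from 0) in each of the 16 mice, by group on the x axis, with the mean of 4 as a bar and the replicate number beside each point. Has2_TG lies between 5.19 and 6.29 and Has2_WT between 1.12 and 2.27, while PH20_WT spans 1.47 to 8.34 and PH20_TG2 and PH20_TG3 lie under 1.

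The accessory chain gene Il1rap was low, at 0.347 to 0.498 FPKM in Has2_WT and 0.551 to 0.959 FPKM in Has2_TG. These ranges did not overlap, but the log2 fold change was 0.62 with an SE of 0.34. Il1rap ranged in the PH20 line from 0.375 to 0.744 FPKM in controls and from 0.283 to 0.858 FPKM in transgenic mice, with a log2 fold change of -0.33 (SE 0.38; limma adjusted p = 0.858). Il1rl1, the interleukin-33 receptor, was at 0.265 to 0.927 FPKM in Has2_WT and 0.270 to 1.04 FPKM in Has2_TG, where its log2 fold change was 0.33 (SE 0.49). Il1rl1 had in the PH20 line a log2 fold change of 0.08 (SE 0.45; limma adjusted p = 0.978), and its highest level, 1.56 FPKM, was in PH20_TG1. The receptor gene of interleukin-33 thus overlapped between groups in both lines, unlike the ligand gene in the Has2 line.

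Il18r1, the interleukin-18 receptor chain, was lower in the transgenic mice of the PH20 line. PH20_WT1 to PH20_WT4 were at 5.48, 1.04, 2.14 and 1.64 FPKM, and PH20_TG1 to PH20_TG4 at 1.20, 0.397, 0.460 and 1.37 FPKM. Past the same threshold, Il18r1 fell by 1.39 on the log2 scale (SE 0.55; limma adjusted p = 0.705), with all 4 transgenic libraries under 3 of the 4 controls, and 2 of them under PH20_WT2 as well. The exact permutation test on log2(FPKM + 0.1) did not pass that threshold (p = 0.0857). T cells express this receptor, and the control with the highest Il18r1, PH20_WT1, was also the one with the highest T cell sum. PH20_WT1 also had the highest progenitor and macrophage marker sums of its group (803 and 1155 FPKM). The part of any of these cells in the Il18r1 values was not tested. Without PH20_WT1 the log2 fold change was -0.94, and without the PH20 libraries whose T cell markers summed to over 100 FPKM it was -0.72 (SE 0.54), both without the call, and leaving out PH20_WT3 (-1.38), PH20_TG2 (-1.12) or PH20_TG3 (-1.18) also lost it. With both PH20_TG1 and PH20_TG4 left out it was -2.08 (SE 0.60). In the Has2 line Il18r1 was at 0.611 to 2.10 FPKM in controls and 1.43 to 2.81 FPKM in Has2_TG (log2 fold change 0.64, SE 0.39), and without the 2 Has2_WT libraries rich in T cell markers it was 1.07 (SE 0.44).

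In the Has2 line 8 of the 10 genes had enough reads to fit, all 8 had a positive log2 fold change, with a median of 0.69 against -0.03 over all genes. Counted as for all genes, 4 were raised at p under 0.05 (Il1r2, Il1rl2, Il33 and Il1r1) and 0 lowered, where 6.25% of the 12606 genes fitted were raised and 3.75% lowered. Il1r2, Il1rl2, Il33 and Il1rap had every Has2_TG library above every control, as did 4.08% of all genes, while 2.11% were below in every library. Nothing is read from these member counts, since the members were chosen with part of this contrast known.

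In the PH20 line 9 genes were fitted, counting Il1rn, and 1 was raised (Il1r1) and 1 lowered (Il18r1), where 3.20% of 12532 genes were raised and 3.39% lowered. By limma with Benjamini-Hochberg adjustment 0 of the 9 passed, against 2 at an unadjusted p under 0.05. None of the 9 had transgenic and control libraries apart, where 2.21% of all genes were above and 2.33% below in every library. The difference between the effects of the 2 transgenes, as the Has2 log2 fold change minus the PH20 log2 fold change, was 4.14 (SE 1.27) for Il1r2, 2.08 (SE 0.79) for Il1rl2, 2.03 (SE 0.71) for Il18r1, 1.99 (SE 1.06) for Il33 and 0.15 (SE 0.35) for Il1r1. These are descriptions, since they contain the Has2 contrast. With PH20_TG1 and PH20_TG4 left out, a choice made after the data were seen and on a level that moves with the members, the PH20 log2 fold change was -3.93 (SE 0.62) for Il1r2, -2.53 (SE 0.66) for Il33, -1.85 (SE 0.39) for Il1rl2, -1.67 (SE 0.55) for Il18 and 0.16 (SE 0.19) for Il1r1. These values are given without a test, and 5.59% of all genes were raised and 8.22% lowered in that fit. Between the controls of the 2 lines, Il1r2 was higher in PH20_WT than in Has2_WT by 1.28 on the log2 scale (SE 0.90), and Il1r1 differed by 0.00 (SE 0.25).

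**Figure D3:**
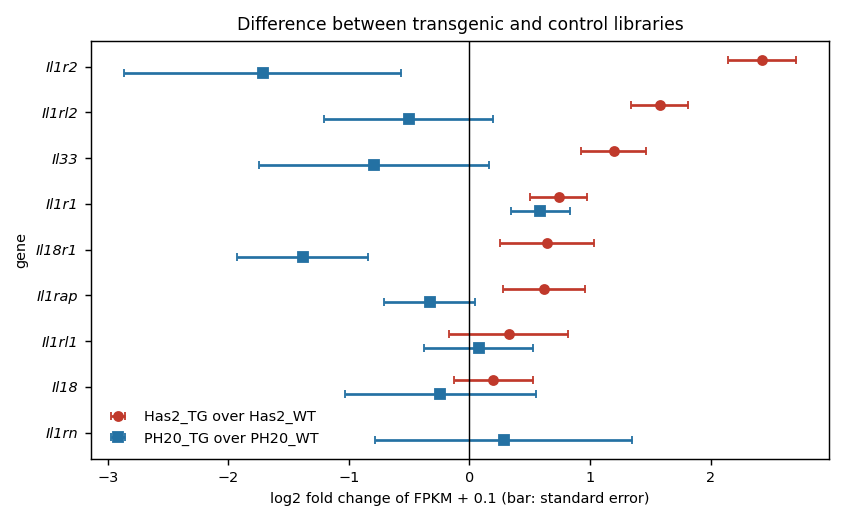
Log2 fold change of each gene on the x axis (FPKM + 0.1, transgenic over control) with its standard error as a bar, for the Has2 line (circles) and the PH20 line (squares); Il1b is not shown and Il1rn is shown for PH20 only, as the rest were under the minimum of reads. Has2 values run from 0.20 for Il18 to 2.42 for Il1r2, and PH20 values from -1.72 for Il1r2 to 0.59 for Il1r1, with wider bars than in the Has2 line for each gene but Il1rl1.

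Neighbors in the chromosome 1 cluster differed in size and direction of the difference. Il1r2 and Il1r1 are adjacent, with starts 151 kb apart, and had log2 fold changes of 2.42 and 0.74 in the Has2 line and of -1.72 and 0.59 in the PH20 line. Il1rl2, at 251 kb from the start of Il1r2, was next to Il1r2 in fold change in the Has2 line, ahead of the nearer Il1r1, whereas in the PH20 line Il18r1 (-1.39) was next to Il1r2 and Il1rl2 was at -0.51. Il18rap, the accessory chain of the interleukin-18 receptor at the far end, went the other way in the Has2 line, at 0.244 to 1.63 FPKM in Has2_WT and 0.0870 to 0.212 FPKM in Has2_TG. Its median in Has2_WT was 0.435 FPKM. Without the Has2_WT libraries rich in T cell markers, or without Has2_WT1 alone, Il18rap had too few reads to fit.

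**Figure D4:**
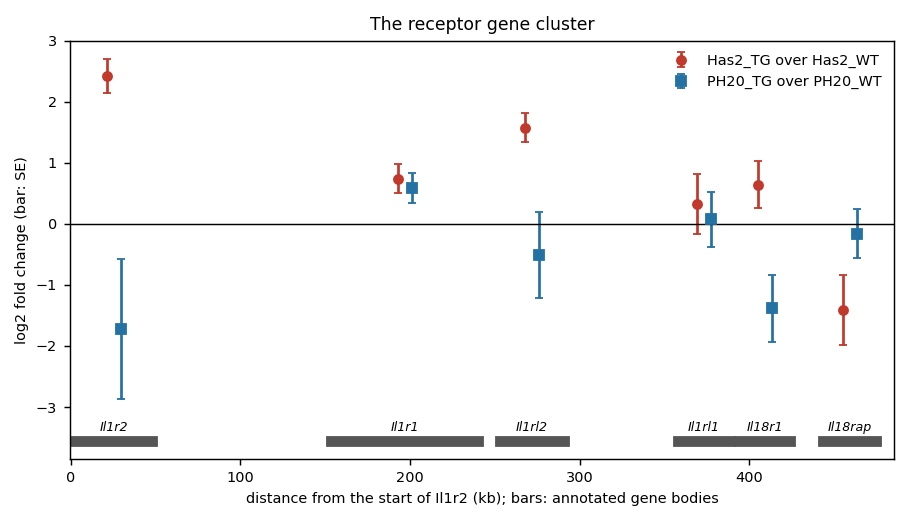
Log2 fold change with standard error (y axis) of the 6 receptor genes of the chromosome 1 cluster, placed near the middle of each gene by distance in kb from the start of Il1r2 (x axis), for the Has2 line (circles) and the PH20 line (squares), with annotated gene bodies drawn to scale as bars. Il1r2, which starts at 0 kb, and Il1rl2, which starts at 251 kb, are the highest in the Has2 line, and Il18rap, from 441 kb, is the lowest, at -1.42. Without Has2_WT1, Il18rap had too few reads to fit in the Has2 line.

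The levels of Il1r2, Il1rl2 and Il33 moved with those of a set of 9 markers of adipocyte progenitors (Pdgfra, Dpp4, Pi16, Cd34, Ly6a, Dcn, Col15a1, F3 and Cd55), all 9 of which were detected in every library. Their summed level was 254 to 454 FPKM in Has2_WT and 565 to 830 FPKM in Has2_TG. It was 277 to 803 FPKM in PH20_WT, and 814, 224, 250 and 839 FPKM in PH20_TG1 to PH20_TG4, the same split as for the 3 genes. The 10 macrophage markers had a similar order, with sums of 327 to 654 FPKM in Has2_WT and 709 to 938 FPKM in Has2_TG. They summed to 673 to 1155 FPKM in PH20_WT, and to 2147, 266, 435 and 869 FPKM in PH20_TG1 to PH20_TG4. The order was thus not particular to the progenitor markers, and the part of macrophages was not tested. In bulk tissue fewer cells of a type and less RNA per cell cannot be told apart. With the progenitor score as a covariate, an alternative added after the data were seen, the Has2 log2 fold change was 1.29 (SE 0.36) for Il1r2, 0.73 (SE 0.35) for Il1rl2, 0.49 (SE 0.48) for Il33 and -0.19 (SE 0.30) for Il1r1.

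Il1r2 can be set beside the progenitor sums library by library. At sums of 795 to 839 FPKM, Il1r2 was at 53.7 and 56.0 FPKM in Has2_TG3 and Has2_TG4, at 43.9 FPKM in PH20_WT1, and at 26.9 and 31.6 FPKM in PH20_TG1 and PH20_TG4. At sums of 224 to 277 FPKM, Il1r2 was at 4.96 to 9.64 FPKM in 3 Has2_WT libraries and PH20_WT2, and at 1.48 and 1.07 FPKM in PH20_TG2 and PH20_TG3. The mean log2 level of the same markers was 3.63 and 3.30 in PH20_TG2 and PH20_TG3 and 4.0 to 4.35 in the libraries set beside them, so the low set was not alike on that measure, and the part of progenitor cells in these Il1r2 levels was not tested by this comparison. With the same covariate the PH20 log2 fold change of Il1r2 was -1.17 (SE 0.13; limma adjusted p = 0.102), past the unadjusted threshold that it missed without the covariate. Il1rl2 had -0.19 (SE 0.22; limma adjusted p = 0.807) and Il33 -0.35 (SE 0.20; limma adjusted p = 0.597). The covariate was added after its markers were seen to move with these genes, so nothing is read from the call of Il1r2. Il1r1, by contrast, was 0.67 (SE 0.17; limma adjusted p = 0.362) with that covariate. The progenitor markers themselves differed between Has2_TG and Has2_WT, so their share in the differences cannot be told apart from that of the transgene.

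**Figure D5:**
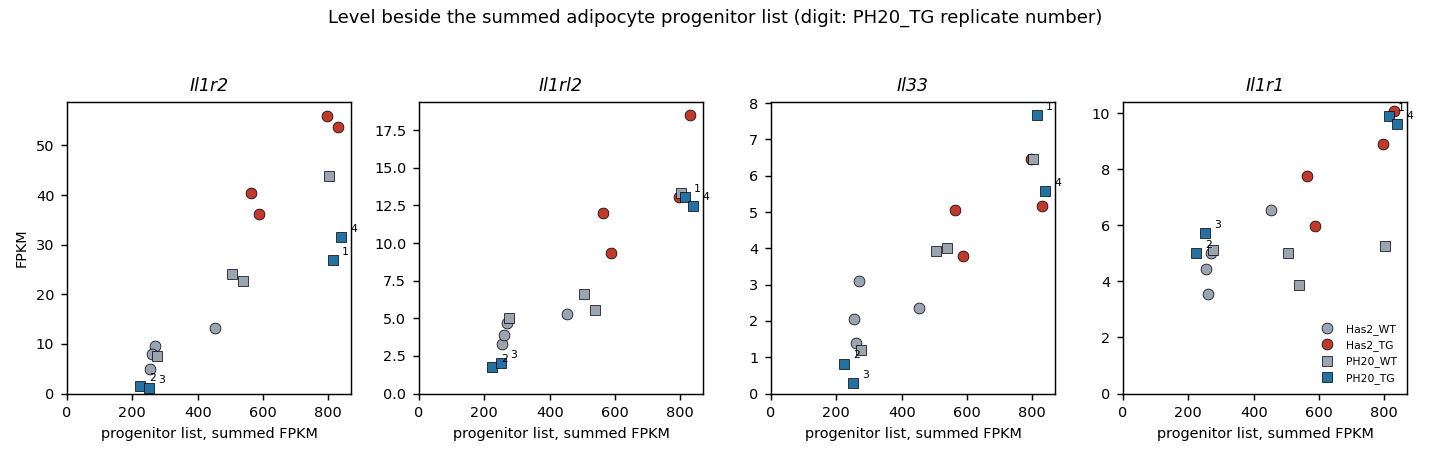
FPKM of Il1r2, Il1rl2, Il33 and Il1r1 (y axes, from 0) against the summed FPKM of 9 adipocyte progenitor markers in the same library (x axis), with 1 point per mouse, groups by color and shape, and replicate numbers beside the PH20_TG points. For Il1r2, Il1rl2 and Il33 the lowest points of all are PH20_TG2 and PH20_TG3, at marker sums of 224 and 250 FPKM, and Il1r1 is at 5.26 FPKM in PH20_WT1 despite a marker sum of 803 FPKM.

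Neutrophils are a textbook source of Il1r2 and Il1b. The 10 neutrophil markers summed to at most 6.68 FPKM, Ly6g had 0 reads in all 16 libraries, and S100a8 reached 3.11 FPKM and was at 0 in 3. Granule protease genes outside that list were higher, with Prtn3 at group means of 8.44 to 14.0 FPKM and Elane at up to 6.40 FPKM, and the part of neutrophils in the Il1r2 and Il1b levels was not tested. Eosinophil markers summed to at most 1.82 FPKM, and the 12 epithelial markers to at most 16.5 FPKM. Skeletal muscle markers summed to 237 to 981 FPKM in PH20_WT and 10.0 to 283 FPKM in PH20_TG, and with these markers as a covariate the PH20 log2 fold change was 0.97 for Il1r1 and 0.28 for Il1rl2.

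The genes whose profiles over the 16 libraries were closest to each member were found by the root mean square difference of centered log2(FPKM + 0.1) values among 12593 genes. For Il1r2 they were Sfrp2, a secreted Wnt modulator (0.24), and Scara3 (0.29), where the spread of Il1r2 itself was 1.67. Sfrp2 averaged 53.8 FPKM in Has2_TG and 10.4 FPKM in Has2_WT. For Il1rl2 they were 1700019D03Rik (0.26) and Ltbp1, a latent TGF-beta binding protein (0.27), and for Il33 they were Qpct and Gabra3 (0.39 each). Among the members, Il33 ranked 30 and Il1rl2 ranked 60 in closeness to Il1r2, and Il1r1 ranked 944. The closest genes were Fosl2 and Pcdh19 for Il1r1, Stard8 and Rnd3 for Il1rap, Tnfrsf21 and Arhgap44 for Il1rl1, Itga9 and Itgb3 for Il18, Phf24 and Fyn for Il18r1, and Arl11 and Slc37a2 for Il1rn.

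Of 92 other genes of the pathway in the table, grouped by role, 55 had enough reads in each line. In the Has2 line 5 were raised and 3 lowered at p under 0.05, where 6.25% and 3.75% of all genes were, and by limma 0 passed Benjamini-Hochberg adjustment. The 3 lowered include Il18rap, which reached the minimum of reads only with Has2_WT1 included. With the progenitor covariate 0 were raised and 1 lowered, so none of the 5 genes raised there kept its call. PH20 calls were 1 raised and 1 lowered, and again 0 passed adjustment.

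Receptor signaling, with 27 of 28 genes fitted, had Irak3, an inhibitor of the MyD88 complex, and Chuk, an IkB kinase subunit, past the unadjusted threshold. Irak3 had means of 8.03 FPKM in Has2_TG and 4.01 FPKM in Has2_WT (log2 fold change 0.97, SE 0.20). Chuk was lower, at a log2 fold change of -0.34 (SE 0.15). The other 25 did not pass, Myd88 (0.26, SE 0.12) included. Chuk lost its call without any single library of the Has2 line except Has2_TG2. The call was also lost without the libraries rich in T cell markers (-0.36, SE 0.19), with a replicate block, and with the B cell, muscle or progenitor covariate. Feedback inhibitors and NF-kB targets, with 11 of 24 fitted, had a median log2 fold change of -0.24 and 1 raised gene. This was the matrix metalloproteinase gene Mmp3 (means of 27.1 against 11.1 FPKM, log2 fold change 1.27, SE 0.31). None of the 9 fitted genes for processing of the ligands passed, Casp1 (0.19, SE 0.18) included. Among genes tied to the response to interleukin-33, 5 of 15 were fitted and 3 were raised, where 6.25% of all genes were. These were Penk (2.10, SE 0.46), the chemokine gene Ccl24 (1.20, SE 0.40) and the alternatively activated macrophage gene Retnla (1.11, SE 0.31). Without the Has2_WT libraries rich in T cell markers, Ccl24 (0.92, SE 0.50) and Retnla (0.70, SE 0.32) lost the call. Both also lost it with all 16 libraries in 1 fit, and Penk kept it in these settings. The other fitted genes, which did not pass, were the receptor subunit gene Il6st (0.29, SE 0.20) and Gata3, a transcription factor of type 2 lymphocytes. Gata3 had means of 0.191 FPKM in Has2_TG and 1.38 FPKM in Has2_WT (-1.94, SE 0.94), with overlapping ranges. The markers of group 2 innate lymphoid and regulatory T cells, Gata3 among them, summed to 24.5 and 12.2 FPKM in Has2_WT1 and Has2_WT2, rich in T cell markers. In Has2_WT3 and Has2_WT4 they summed to 3.92 and 3.97 FPKM. The part of these cells in the Gata3 value was not tested. The remaining 10 were too low to fit, among them Il5, Il13 and Areg, and Areg had 0 reads throughout. The 10 macrophage markers summed to 709 to 938 FPKM in Has2_TG and 327 to 654 FPKM in Has2_WT, and their part in the values of Ccl24 and Retnla was not tested.

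Sigirr, a negative regulator of the family, and Il18rap were lowered in the Has2 line, with log2 fold changes of -1.67 (SE 0.65) and -1.42 (SE 0.57). Sigirr also fell, by the unadjusted threshold, in the PH20 line, by 1.05 on the log2 scale (SE 0.41; limma adjusted p = 0.703). In both lines 2 of the 4 controls were the libraries with T cell sums over 100 FPKM. Without them the log2 fold change of Sigirr was -0.58 (SE 0.53) in the Has2 line and -0.64 (SE 0.44) in the PH20 line, both without the call. Il18rap fell under the minimum in the Has2 line without them, and also without Has2_WT1 alone. It had 28 to 300 reads in Has2_WT and 11 to 36 in Has2_TG. The call of Il18rap was also lost with a pseudocount of 1, no minimum of reads, voom weights, or the B cell or progenitor covariate. Leaving out Has2_WT2, Has2_TG2, Has2_TG3 or Has2_TG4 lost it as well. The Has2 call of Sigirr was also lost without Has2_WT1 (-1.12), Has2_WT2 (-1.49) or Has2_TG1 (-1.28). A replicate block and the B cell (-0.63) or progenitor (-1.28) covariate lost it as well. The PH20 call of Sigirr was also lost without PH20_WT1 (-0.73), PH20_WT3 (-1.09), PH20_WT4 (-0.99), PH20_TG1 (-1.06) or PH20_TG2 (-0.81). The 1 gene raised in the PH20 line was Map2k3, a kinase upstream of p38, at a log2 fold change of 0.43 (SE 0.17; limma adjusted p = 0.709), and its call was lost without the PH20 libraries rich in T cell markers (0.27, SE 0.19), and without any 1 of PH20_WT1, PH20_WT3, PH20_WT4, PH20_TG2 and PH20_TG3 (0.31 to 0.44). Penk, Ccl24 and Retnla had PH20 log2 fold changes of -0.83 (SE 0.90), -1.33 (SE 0.66) and -1.44 (SE 0.70), and these did not pass (limma adjusted p = 0.853, 0.731 and 0.731).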

How the data were processed

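RNA of iWAT from 16 mice was sequenced, and 1 table of FPKM values was deposited. The authors checked reads with FastQC 0.11.9 and MultiQC 1.12 and aligned and counted them with STAR 2.7.9a on GRCm38 with GENCODE release 23, and the submitters' processing notes also name DESeq2. The step from counts to the deposited FPKM is not given in the sources used here. FPKM times gene length gave whole reads for 100% of values within 0.01. Within each group, every pair of libraries differed beyond sampling noise (chi-square per degree of freedom at least 30.6).

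Genes that averaged 50 or more reads across a line's 8 libraries were fitted as log2(FPKM + 0.1) with limma 3.58.1 (trend) in R 4.3.3, separately in each line, with the p-value threshold of 0.05 from the study's methods, applied here to unadjusted p, and Benjamini-Hochberg adjustment over all genes fitted. Fold changes on this scale understate those of low genes. The procedure was run on simulated counts in which all genes had the same dispersion and changed genes were only raised. That setting is unlike the spread between PH20 mice, so it does not show how the fit behaves there. Other steps used Python 3.11.15, numpy 2.4.6, pandas 2.3.3 and scipy 1.17.1. Promoter sequences are RefSeq's (GRCm38.p6), and all 10 members matched by symbol.

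Members and lists were chosen with earlier results of these data known. Named genes were the members, the up to 5 pathway genes of each direction with the largest fold change among those past the threshold, and the 2 genes closest to each member. Other pathway genes were named after their values were seen. Each result was recomputed with median-of-ratios scaling, a pseudocount of 1, every gene kept, only genes at 1 or more mean FPKM, voom weights, all 16 libraries in 1 fit, a replicate block, B cell and skeletal muscle covariates, and without each library in turn. Leaving out lymph-node-rich libraries, the progenitor covariate, and leaving out PH20_TG1 and PH20_TG4 were added after seeing the data. Depth limits the precision of Il1b and Il1rn, and read floors cover counting error only.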

Additional observations from a re-analysis of the deposited data

Results flagged for a closer look

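Of the 40 sets of 1 gene in 1 group of 4 mice, 4 held a library far from the other 3, judged by its gap to the nearest library over the range. In the flagged Il1b sets the other 3 libraries were at 0, so any read in the remaining library set it apart. The count of 4 therefore cannot be compared with a chance rate, and nothing is read from it. Il1rn was at 5.71 FPKM in the library labelled PH20_TG1, against 0.0433 to 0.218 FPKM in the other PH20_TG libraries. PH20_TG1 also had the highest macrophage marker sum (2147 FPKM) and the highest Il33, Il18 and Il1rl1 levels of all libraries. Il1rn was at 0.228 FPKM in Has2_WT2, against 0.0284 to 0.0532 FPKM in the other Has2_WT libraries. Il1b was at 0.271 FPKM in Has2_WT2, from 9 reads, and at 0.0632 FPKM in Has2_TG2, from 2 reads, with 0 in the other libraries of each group. Of these values, that of Has2_TG2 lies under the level of 3 reads in that library (0.0948 FPKM).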

How the results depend on the processing

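Has2 counts are descriptions. The 4 members at p under 0.05 there became 3 with all 16 libraries in 1 fit, where Il33 was lost, and 1 with the progenitor covariate. With that covariate the log2 fold change turned to -0.19 for Il1r1, -0.000988 for Il1rap, -1.17 for Il1rl1, -0.56 for Il18 and -0.49 for Il18r1. Leaving out single libraries gave -0.0609 to 0.40 for Il18. The pathway genes past the threshold numbered 8, but 5 with the B cell covariate or without the libraries rich in T cell markers, 1 (lowered) with the progenitor covariate, and 5 to 12 without single libraries.

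In the PH20 line 2 members passed, but 3 with the progenitor covariate (Il1r1 raised, Il1r2 and Il18r1 lowered), which was added after the data were seen and moves with several members. The count was 1 with the muscle covariate and 0 with the B cell covariate or without the libraries rich in T cell markers. It was 5 without PH20_TG1 and PH20_TG4, which were picked by a level that moves with the members, and 0 to 1 without single libraries. Pathway calls there were 2, but 6 with no minimum of reads, 4 with a mean FPKM of at least 1, 4 with voom weights, 0 with either the B cell or the muscle covariate or without the libraries rich in T cell markers, 8 with the progenitor covariate or without PH20_TG1 and PH20_TG4, and 0 to 6 without single libraries. The PH20 log2 fold change turned to -1.33 for Il1rn and 0.28 for Il1rl2 with the muscle covariate, to 0.0341 for Il1rl2 and 0.34 for Il18 with the B cell covariate, to 0.22 for Il18 without the libraries rich in T cell markers, to 0.10 for Il18 with the progenitor covariate, and for Il1rl1 to -0.0708 with voom weights and -0.63 without PH20_TG1 and PH20_TG4. Single libraries left out gave -0.26 to 0.35 for Il1rl1 and -0.78 to 0.54 for Il18.

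The difference between the effects of the 2 transgenes was 0.38 for Il1rap and 1.25 for Il18r1 with a pseudocount of 1. Without PH20_TG1 and PH20_TG4 it was 0.58 for Il1r1, 6.36 for Il1r2, 1.42 for Il1rap, 0.96 for Il1rl1, 3.43 for Il1rl2, 3.72 for Il33 and 1.86 for Il18. The cause of these shifts was not tested. Pairing of the mice by replicate number is not established. The deviations of same-numbered mice correlated at -0.18 to 0.13 in the Has2 line and, in the PH20 line, at 0.35 and 0.42 for numbers 1 and 2 and at -0.03 and -0.04 for numbers 3 and 4. With a replicate block 1 member (Il18r1) and 8 pathway genes passed in the PH20 line. The deposited values were already on the median-of-ratios scale, so that alternative changed no value and says nothing about stability. Depth limits Il1b, with 68 reads in all.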
